A study of Mus musculus with 6 samples.

Results

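The secreted Wnt antagonists were measured in the soleus, a slow muscle of the calf, as 8 genes picked by symbol: the secreted Frizzled-related proteins *Sfrp1*, *Sfrp2*, *Sfrp4*, *Sfrp5* and *Frzb*, the Dickkopf proteins *Dkk2* and *Dkk3*, and *Wif1*. All 8 had a row among the 16247 rows of the deposited normalized table, which was drawn from 51912 genes with raw counts. RNA came from 3 mice heterozygous for the Mustn1 KO-first allele (HET) and 3 wild-type (WT) littermates, all C57BL6/N and 8 weeks old, with 1 library per mouse. The KO-first allele is carried in the whole body and traps the transcript of *Mustn1* in a lacZ and neomycin cassette. HET mice keep 1 intact allele, and all values describe 1 muscle at 1 age.

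Wnt proteins are secreted lipid-modified signals that bind Frizzled receptors, and for signaling through beta-catenin also the co-receptors Lrp5 and Lrp6. Antagonists act outside the cell at both steps. Secreted Frizzled-related proteins carry a cysteine-rich domain like that of the Frizzled receptors and bind Wnt, as does Wnt inhibitory factor through its own domain, whereas *Dkk2* encodes a ligand of Lrp5 and Lrp6 that can block them, and *Dkk3* a divergent relative that does not act on these co-receptors in the same way. In muscle, Wnt signaling is known from regeneration and from the connective tissue between fibers.

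Libraries held between 26790075 and 50368796 reads on genes. *Mustn1* was read between 452 and 574 times in HET and between 691 and 1504 times in WT mice. The log2 fold change was −0.96 with a standard error (SE) of 0.15 and an edgeR adjusted p of 0.0452, which stayed past the threshold in 2 of the 6 fits with 1 mouse left out. Although the 6 mice were labelled male, *Xist* had from 3858 to 9154 reads per library and 4 Y-chromosome genes together from 0 to 12, which goes against that label in both genotypes alike. Over 14696 genes tested, 21 were higher and 1 was lower in HET mice at an adjusted p below 0.05, and the count of higher genes was 64 without WT mouse 3, 9 without HET mouse 2 and 0 without any of the other 4.

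The genes lie on 7 chromosomes of the mouse build GRCm38, with *Sfrp2* and *Dkk2* sharing chromosome 3. *Sfrp2* (ENSMUSG00000027996) runs from 83766321 to 83774316 on the plus strand with 3 exons in its longest transcript, and *Wif1* (ENSMUSG00000020218) from 121033960 to 121100650 on the plus strand of chromosome 10 with 10 exons. The others are *Sfrp1* (ENSMUSG00000031548, chromosome 8, 23411502 to 23449632), *Sfrp4* (ENSMUSG00000021319, chromosome 13, 19623104 to 19632994), *Sfrp5* (ENSMUSG00000018822, chromosome 19, 42197971 to 42202252), *Frzb* (ENSMUSG00000027004, chromosome 2, 80411970 to 80447625), *Dkk2* (ENSMUSG00000028031, 132085292 to 132180304) and *Dkk3* (ENSMUSG00000030772, chromosome 7, 112116017 to 112159057). The count table gives the same outer positions for all 8.

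The promoters of the antagonists with the largest difference between genotypes, *Sfrp2* and *Wif1*, are shown beside that of *Dkk2*, which had no clear difference. The bases come from RefSeq on GRCm38.p6, which had a window for 5 of the 8 genes, and each is cut at the annotated start of the gene so that it ends just before the first transcribed base. Capitals mark the letters searched for on both strands, which are TATAAA for a TATA box, GGGCGG for a GC box, and CTTTGA and CTTTGT for the core bound by TCF and LEF factors, the nuclear partners of beta-catenin. A match on the other strand appears as its reverse complement.
*Sfrp2* chr3:83766071-83766320, plus strand: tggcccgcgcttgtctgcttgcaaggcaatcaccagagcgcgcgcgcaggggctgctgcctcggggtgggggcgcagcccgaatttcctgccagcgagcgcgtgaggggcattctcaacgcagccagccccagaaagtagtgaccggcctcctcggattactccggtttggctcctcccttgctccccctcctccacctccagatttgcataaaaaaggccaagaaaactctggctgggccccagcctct
*Wif1* chr10:121033754-121033959, plus strand: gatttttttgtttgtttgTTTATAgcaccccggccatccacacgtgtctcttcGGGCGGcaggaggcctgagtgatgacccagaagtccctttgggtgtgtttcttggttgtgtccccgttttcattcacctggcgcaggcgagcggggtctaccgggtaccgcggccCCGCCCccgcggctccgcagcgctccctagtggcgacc
*Dkk2* chr3:132085042-132085291, plus strand: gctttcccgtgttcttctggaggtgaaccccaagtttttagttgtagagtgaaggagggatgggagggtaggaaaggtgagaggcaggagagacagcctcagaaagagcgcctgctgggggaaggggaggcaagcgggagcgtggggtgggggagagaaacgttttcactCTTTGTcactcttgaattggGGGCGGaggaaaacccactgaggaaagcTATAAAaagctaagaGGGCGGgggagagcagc
The *Sfrp2* window held none of the 4 motifs. *Wif1* held 2 GC boxes, with first bases 153 and 38 bases before the start, and a TATAAA on the minus strand 188 bases before it. In *Dkk2*, a TATA box lay 32 bases before the start, a CTTTGT 80 bases before it, and 2 GC boxes at 60 and 17 bases. *Sfrp5*, which also had no clear difference, has a window of 250 bases that is not printed. It held 1 GC box, 43 bases before the start, and no match to the other motifs. Among 32536 distinct windows of 250 bases, 33.0% held a GC box, 12.3% a TATAAA, 13.9% a CTTTGA and 16.5% a CTTTGT. G and C made up 63.6% of the *Sfrp2*, 61.7% of the *Wif1* and 55.6% of the *Dkk2* window, against a median of 52.4% over all windows. The window of *Wif1* is 206 bases long and therefore shorter than those counted for the shares.

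To compare levels between genes, reads were divided by gene length (RPKM, reads per kilobase, scaled to library size). *Frzb*, also known as sFRP3, had the highest level of the 8, with 4.87 ± 0.332 (HET) and 5.08 ± 0.753 RPKM (WT, SD, n = 3 each). Next came *Dkk2*, with 3.04 ± 0.963 (SD, n = 3) and 3.42 ± 1.16 RPKM (SD, n = 3), and *Sfrp5*, with 2.65 ± 1.91 (SD, n = 3) and 1.93 ± 1.03 RPKM (SD, n = 3). The order over all 6 mice then went from *Wif1* at a mean of 1.06 RPKM through *Dkk3* at 0.827, *Sfrp4* at 0.651 and *Sfrp1* at 0.301 to *Sfrp2* at 0.219.

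Every pair of neighbors in this order overlapped over the 6 mice, so most single steps in it are within the spread between mice. Within every mouse, however, *Frzb* lay above *Dkk2* and *Sfrp4* above *Sfrp1*. The order also differed between genotypes. *Wif1* was the sixth level in WT mice, at 0.377 ± 0.175 RPKM (SD, n = 3), and the fourth in HET mice, at 1.74 ± 0.925 RPKM (SD, n = 3). *Sfrp2* had the lowest level in WT mice, at 0.0560 ± 0.00637 RPKM (SD, n = 3), and all 3 of these mice lay below the lowest value of *Sfrp1*. In HET mice *Sfrp2* reached 0.382 ± 0.143 RPKM (SD, n = 3), where its values overlapped those of *Sfrp1* at 0.347 ± 0.140 RPKM (SD, n = 3).

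**Figure D1:**
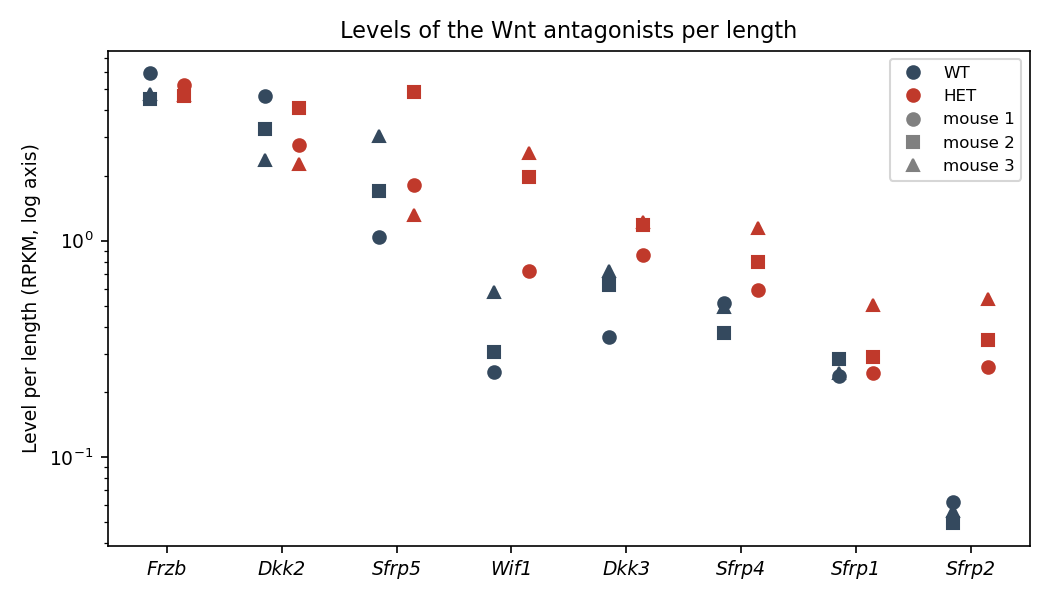
Level per length (RPKM, log axis) of each Wnt antagonist, ordered by the mean of 6 mice, with 1 point per mouse (WT dark, HET red, symbols for mouse numbers 1 to 3). *Frzb* sat between 4.53 and 5.94 RPKM in every mouse, while *Sfrp2* and *Wif1* were the genes whose HET and WT points stood farthest apart.

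Summed over the 8 genes, the level per length had an SD of 2.93 RPKM in HET and 0.964 RPKM in WT mice (n = 3 each), with values of 12.5, 18.2 and 14.2 in HET against 13.0, 11.1 and 12.3 RPKM in WT mice, which overlapped. *Frzb* held between 25.7% and 42.1% of this sum in HET and between 38.9% and 45.5% in WT mice. The shares of *Wif1*, *Sfrp2*, *Dkk3* and *Sfrp4* did not overlap between genotypes. They come from the same reads as the comparison of genotypes below and are no separate result. Values of every HET mouse above those of every WT mouse were seen in 7.55% of all genes tested. *Sfrp2* passed the filter on low counts only through its HET mice. *Wif1* took between 5.81% and 17.9% of the sum in HET and between 1.90% and 4.68% in WT mice, and *Sfrp2* took between 1.90% and 3.80% against 0.444% to 0.476%. For *Dkk3* the shares were 6.46% to 8.60% against 2.75% to 5.89%, and for *Sfrp4* 4.36% to 8.03% against 3.35% to 4.02%.

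Genotypes were compared on raw counts with edgeR, with adjustment over all 14696 genes. At an adjusted p below 0.05, 0 of the 8 antagonists were higher in HET mice, against 0.143% of all genes tested, and 0 were lower, against 0.0068%. With DESeq2's Wald test 2 of the 8, *Sfrp2* and *Wif1*, were past the same threshold, against 1.51% of genes. Without the filter on low counts edgeR put 4 of the 8 past it, against 1.33% of genes. With the replicate number as a block it put 2 of the 8 past it, against 0.776%, but whether the numbers pair the mice is not known. At an unadjusted p below 0.05, 4 of the 8 were higher, against 5.76% of all genes, and 0 were lower, against 2.0%. The 4 genes were *Sfrp2*, *Wif1*, *Dkk3* and *Sfrp4*. In these 4 the lowest HET value exceeded the highest WT value, which held for 7.55% of all genes tested. Leaving aside *Sfrp2*, which passed the filter on low counts only through its HET mice, 3 of the other 7 showed this. The opposite order was seen in 0 of the 8, against 6.02% of genes.

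Of the 8 antagonists, 6 had a log2 fold change above 0, against 45.6% of all genes, and the median was 0.66, against −0.02 over all genes. Without *Sfrp2* the median was 0.46. A bulk library cannot tell a change in the number of cells of a type from a change in RNA per cell.

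**Figure D2:**
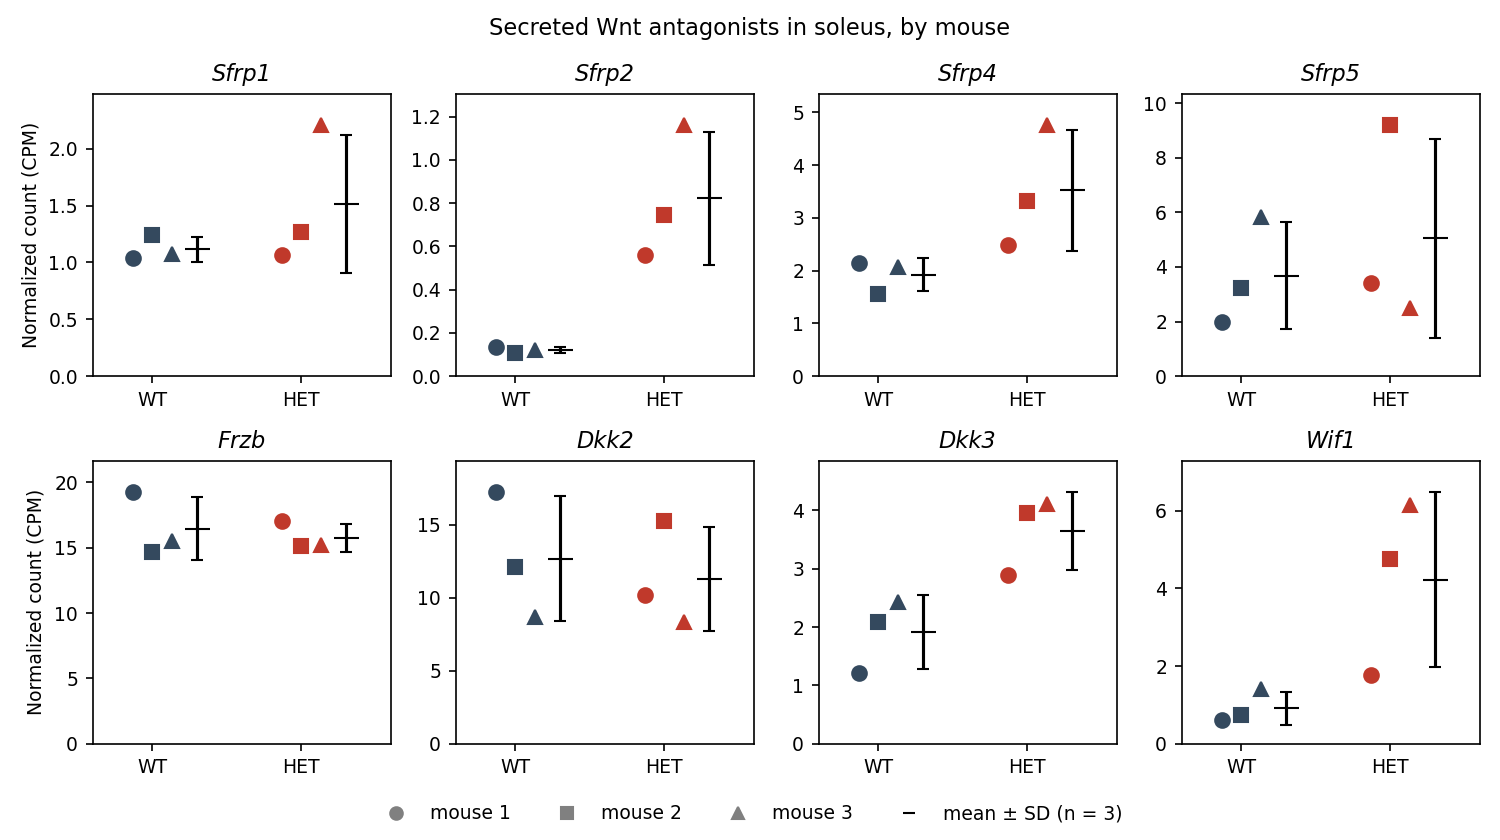
Normalized count (CPM, counts scaled to library size) of each Wnt antagonist in each mouse, with the mean ± SD (n = 3) beside the points and a separate vertical axis for each gene. *Sfrp2*, *Sfrp4*, *Dkk3* and *Wif1* had every HET mouse above every WT mouse, and *Sfrp1*, *Sfrp5*, *Frzb* and *Dkk2* overlapped.

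Among the Frizzled-related proteins, *Sfrp2*, which is known as a product of connective tissue cells, differed most. Its reads numbered 21, 20 and 51 in HET mice 1 to 3, and 4, 3 and 6 in WT mice 1 to 3. Scaled to library size, this made 0.561, 0.745 and 1.16 CPM in HET and 0.134, 0.106 and 0.122 CPM in WT mice. The WT mice were close together and far below the lowest HET mouse. The mean was 0.823 ± 0.308 (HET) and 0.121 ± 0.0137 CPM (WT, SD, n = 3 each), a 6.82-fold ratio. On the log2 scale edgeR estimated a change of 2.75 (SE 0.46, adjusted p = 0.0655), which missed the threshold. By p-value *Sfrp2* ranked 25 among all genes tested.

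Few reads lie behind the ratio of *Sfrp2*, namely 92 in HET and 13 in WT mice. From these totals the ratio was 7.03, with an exact 95% interval from 3.91 to 13.7 that covers counting error only and leaves out the spread between mice. The exact permutation test of 3 mice against 3 gave its smallest possible two-sided p, 0.1.

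*Sfrp4*, a relative known from bone and other connective tissues, was read 93, 89 and 209 times in HET and 64, 44 and 102 times in WT mice. This was 2.48, 3.32 and 4.76 CPM in HET mice 1 to 3 against 2.14, 1.56 and 2.07 CPM in WT mice 1 to 3. HET mouse 1 lay only just above the highest WT mouse, and HET mouse 3 stood well above the rest. Its log2 fold change was 0.87 (SE 0.26, adjusted p = 0.317 by edgeR), and without HET mouse 3 it was 0.58.

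*Sfrp1* showed no separation of the genotypes. It had 1.07, 1.27 and 2.21 CPM in HET and 1.04, 1.24 and 1.07 CPM in WT mice, so that HET mouse 3 alone was high and the other 5 mice lay together. Its log2 fold change was 0.46 (SE 0.32, adjusted p = 0.849 by edgeR) and came to 0.06 without HET mouse 3.

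*Sfrp5*, known from adipose tissue, varied most within genotypes. Its values were 3.42, 9.20 and 2.51 CPM in HET and 1.97, 3.23 and 5.81 CPM in WT mice, with HET mouse 2 and WT mouse 3 above all others. The SD was 72.0% of the mean in HET and 53.3% in WT mice. The log2 fold change of 0.40 (SE 0.60, adjusted p = 0.943 by edgeR) turned to −0.33 without HET mouse 2.

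*Frzb* had an SD of 6.82% of the mean in HET mice, the smallest of the 8 there, and 14.8% in WT mice, where *Sfrp1* at 9.75% and *Sfrp2* at 11.4% varied less. It had 17.0, 15.1 and 15.2 CPM in HET mice 1 to 3 and 19.2, 14.6 and 15.5 CPM in WT mice 1 to 3. The genotypes lay within each other, with a log2 fold change of −0.06 (SE 0.13, adjusted p = 0.963 by edgeR). Read between 406 and 765 times per library, *Frzb* had the most reads of the 8 over all libraries.

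*Wif1*, the Wnt inhibitory factor, had the second largest difference. It was read 66, 128 and 270 times in HET mice and 18, 21 and 69 times in WT mice. Normalized, this was 1.76, 4.77 and 6.15 CPM in HET and 0.602, 0.745 and 1.40 CPM in WT mice. HET mouse 1 was close to the highest WT mouse, WT mouse 3, while HET mice 2 and 3 were far above both. The mean was 4.23 ± 2.24 (HET) and 0.915 ± 0.424 CPM (WT, SD, n = 3 each), a 4.62-fold ratio.

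For *Wif1* the log2 fold change came to 2.15 (SE 0.49, adjusted p = 0.197 by edgeR). Leaving out 1 mouse at a time gave values from 1.77 to 2.65, and none of these fits passed the threshold. The summed reads, 464 against 108, gave a ratio of 4.27 with an exact 95% interval from 3.45 to 5.31 for counting error only. The SD between mice was 53.1% of the mean in HET and 46.4% in WT mice.

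Of the Dickkopf genes, *Dkk3* had 2.88, 3.95 and 4.10 CPM in HET and 1.20, 2.09 and 2.43 CPM in WT mice. WT mouse 1 was the lowest, and the gap between the genotypes ran from WT mouse 3 to HET mouse 1. The mean was 3.65 ± 0.663 (HET) and 1.91 ± 0.634 CPM (WT, SD, n = 3 each), with a log2 fold change of 0.91 (SE 0.27, adjusted p = 0.289 by edgeR).

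*Dkk2* went no clear way, with 10.2, 15.2 and 8.34 CPM in HET mice and 17.2, 12.1 and 8.71 CPM in WT mice. Its highest mouse was WT mouse 1 and its lowest HET mouse 3, and the values of the genotypes were interleaved. Its log2 fold change over all mice was −0.17 (SE 0.29, adjusted p = 0.947 by edgeR), and without WT mouse 1 it came to 0.11.

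**Figure D3:**
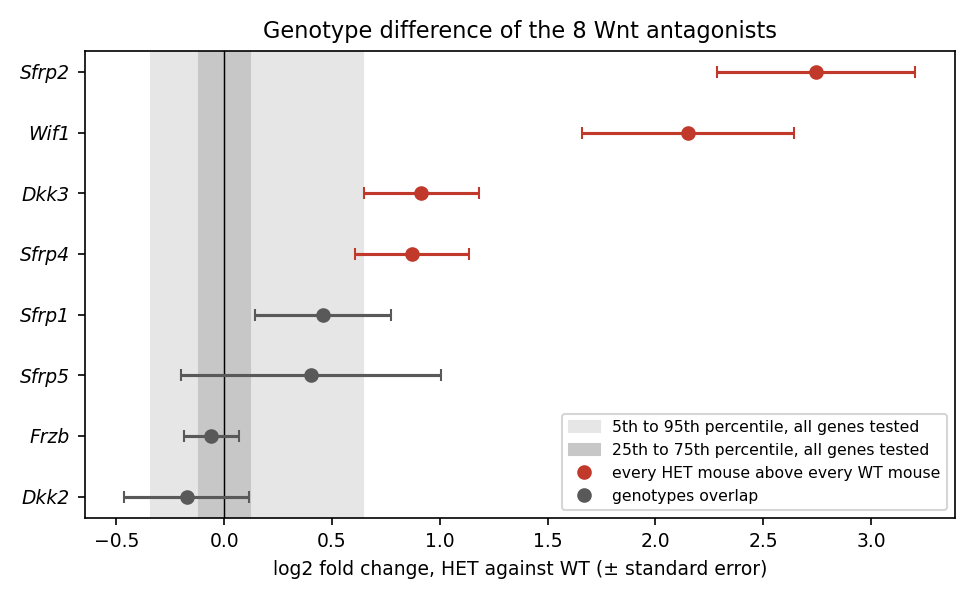
Log2 fold change of HET against WT mice for the 8 antagonists with its standard error, over bands that hold the middle of all 14696 genes tested. *Sfrp2* at 2.75 and *Wif1* at 2.15 lay far to the right of the 95th percentile of all genes, 0.64, and *Dkk3* and *Sfrp4* lay past it by less.

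The antagonists did not follow 1 common order of the mice. HET mouse 3 was the highest mouse for 5 of the 8 genes, namely *Sfrp1*, *Sfrp2*, *Sfrp4*, *Dkk3* and *Wif1*, and for none of *Sfrp5*, *Frzb* and *Dkk2*. WT mouse 1 was the lowest for 4, namely *Sfrp1*, *Sfrp5*, *Dkk3* and *Wif1*, and the highest for both *Frzb* and *Dkk2*.

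For each antagonist, the most alike genes were those with the smallest root-mean-square difference in log2 CPM over the 6 mice, after subtraction of each gene's mean. For *Wif1* they were *Ecrg4*, at a difference of 0.23, and *Comp*, a cartilage and tendon matrix protein, at 0.25. *Ecrg4*, at 0.31, was also the second closest gene to *Sfrp2*, after *Napsa* at 0.29. With 0.0669, 0.0355 and 0.0810 CPM in WT mice, *Napsa* passed the filter on low counts only through its HET mice, as did *Sfrp2*. *Ecrg4* had 1.10, 2.27 and 3.35 CPM in HET and 0.334, 0.284 and 0.547 CPM in WT mice, which edgeR estimated as 2.47 on the log2 scale (adjusted p = 0.0785). *Dkk3* was closest to *Ssc5d* at 0.05 and *Vasn* at 0.08, and *Sfrp4* to *Plk1* at 0.11 and *Plxnc1* at 0.13. *Plk1*, at 0.301, 0.213 and 0.243 CPM in WT mice, also needed its HET mice to pass the filter.

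The genes closest to the other antagonists had log2 fold changes between −0.15 and 0.37. *Sfrp5* was nearest to *Fa2h* and *Perp*, both at a difference of 0.26, *Sfrp1* to *Cdc7* at 0.07 and *Add2* at 0.09, *Dkk2* to *Wdr62* at 0.12 and *Gm44694* at 0.13, and *Frzb* to *Snrpa1* and *Crot*, both at 0.02. These matches were picked from all genes tested, over only 6 mice, and are a description with no test.

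The rest of the Wnt pathway was read from 85 further listed genes, of which 64 were tested. At an adjusted p below 0.05 with edgeR, 0 of the 64 passed in either direction. At an unadjusted p below 0.05, 9 of the 64 were higher and 1 was lower, against 5.76% and 2.0% of all genes. The log2 fold change was above 0 in 39, with a median of 0.02. Every HET mouse lay above every WT mouse in 6 of the 64, against 7.55% of all genes, and below in 3, against 6.02%.

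Of the Wnt ligands, 9 of 19 had enough reads, with 7 above 0. Among these 7, *Wnt2*, named after its values were seen, passed the filter on low counts only through its HET mice. *Wnt10b*, at 0.268, 0.106 and 0.425 CPM in WT mice, also needed its HET mice to pass. The 9 ligands ranged from −0.31 for *Wnt4* to 0.94 for *Wnt10b*, and the highest level per length was that of *Wnt5b*, at 4.94 RPKM. Every HET mouse lay below every WT mouse for *Wnt4*, and above every WT mouse for *Wnt2*. All 16 receptors and co-receptors were tested. They ranged from −0.15 for *Fzd10* to 0.87 for *Ror2*, a receptor tyrosine kinase for Wnt (SE 0.35, adjusted p = 0.556 by edgeR). *Fzd9* had the highest level among them, at 55.7 RPKM, and a log2 fold change of 0.28 (SE 0.13, adjusted p = 0.698 by edgeR).

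R-spondins amplify Wnt signals through Lgr receptors. The 3 of 7 such genes tested were all below 0, from −0.27 for *Lgr4* (SE 0.10, adjusted p = 0.474 by edgeR) to −0.02 for *Rspo3*, which also had their highest level at 9.46 RPKM. Other inhibitors at or outside the cell surface had a median of −0.04 over 7 tested genes. They ran from −0.65 for *Rnf43*, a ubiquitin ligase that removes Frizzled receptors, to 0.79 for *Tpbg* (SE 0.29, adjusted p = 0.474 by edgeR). *Kremen1*, a co-receptor for Dickkopf proteins, had the highest level of these, at 49.7 RPKM, and a log2 fold change of −0.04 (SE 0.08). *Igfbp4*, named after its values were seen, had 0.57 (SE 0.16, adjusted p = 0.267 by edgeR) and passed with DESeq2.

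Inside the cell, the 19 signal transducers had a median log2 fold change of 0.00124. *Ctnnb1*, which encodes beta-catenin, had their highest level at 71.6 RPKM and a log2 fold change of −0.04 (SE 0.08, adjusted p = 0.954 by edgeR). They ranged from −0.11 for *Pygo1* to 1.09 for *Lef1* (SE 0.50, adjusted p = 0.658 by edgeR), which was read 110 times in all 6 libraries together.

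Of the genes listed as Wnt targets, 9 of 10 tested were above 0, against 45.6% of all genes, with a median of 0.43. At an unadjusted p below 0.05 with edgeR, 4 of the 10 were higher and 0 lower, against 5.76% and 2.0% of all genes. Every HET mouse lay above every WT mouse in 1 of the 10, against 7.55%. None passed the adjusted threshold, and the range was from −0.07 for *Prickle1* to 0.82 for *Nkd2*, an inhibitor of Dishevelled (SE 0.30, adjusted p = 0.450 by edgeR). The highest level among them was that of *Tnfrsf19*, at 8.38 RPKM, with a log2 fold change of 0.03. *Axin2*, the widely used feedback target, is named after its values were seen. It had 24.3 ± 3.46 (HET) and 24.0 ± 0.391 CPM (WT, SD, n = 3 each) and a log2 fold change of 0.01 (SE 0.12, adjusted p = 0.990 by edgeR).

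**Figure D4:**
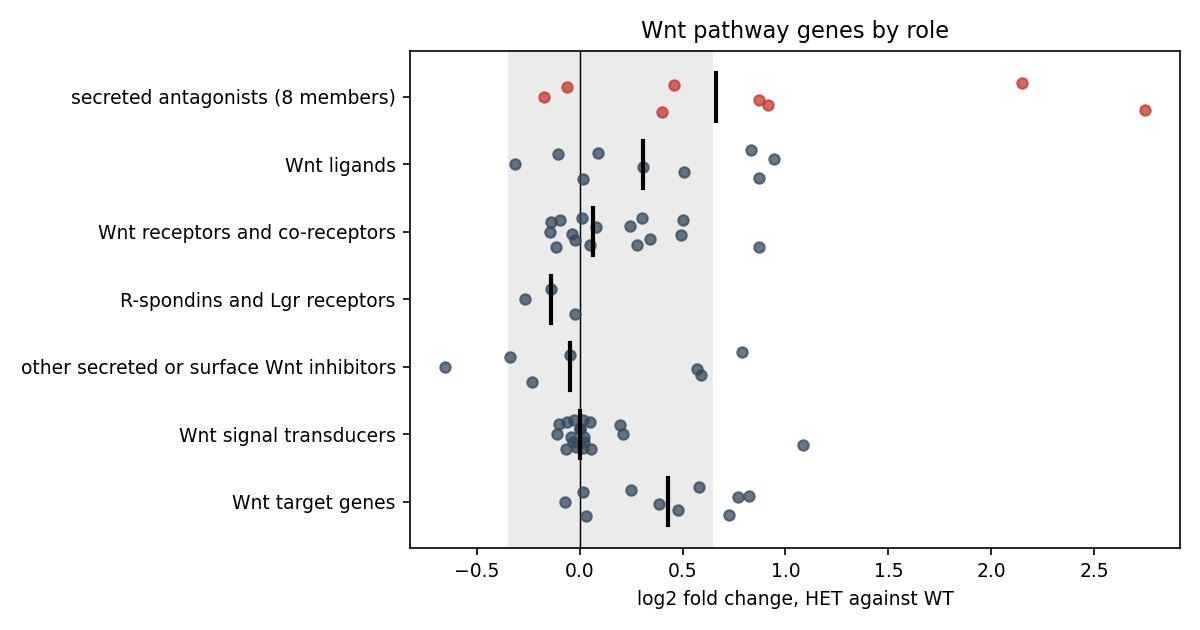
Log2 fold change of HET against WT for the 8 antagonists (red) and 64 other tested Wnt pathway genes (dark), 1 point per gene, grouped by role. Black bars are medians, 0.66 for the antagonists and 0.00124 for the signal transducers, and the grey band runs from the 5th to the 95th percentile of all genes tested.

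Marker genes of other cells in the muscle moved with some of the antagonists. The marker lists, here and below, were chosen with earlier results of these data known. The shares of all genes beside their counts are therefore a description and no test. Of 15 markers of fibro-adipogenic progenitors and fibroblasts, the connective tissue cells of muscle, 15 were tested and above 0. Of these, 10 had every HET mouse above every WT mouse, against 7.55% of all genes, and 1, *Pi16*, named after its values were seen, passed the threshold with edgeR, against 0.143%. Summed, they had between 2412 and 3178 CPM in HET and between 1185 and 1844 CPM in WT mice, a 1.79-fold ratio of the means. *Pdgfra*, which defines these cells, had 24.7 ± 3.98 (HET) and 16.3 ± 4.74 CPM (WT, SD, n = 3 each), and the genotypes overlapped.

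Tenocyte markers were above 0 in 12 of 12 genes, with 11 of them not overlapping, against 7.55% of all genes. With edgeR 0 were past the threshold, against 0.143%, and 10 were at an unadjusted p below 0.05, against 5.76%. Their sum was 499, 851 and 796 CPM in HET mice 1 to 3 and 185, 365 and 394 CPM in WT mice 1 to 3, a 2.28-fold ratio of the means. *Tnmd* had 21.5, 27.7 and 42.8 CPM in HET and 7.26, 18.6 and 18.8 CPM in WT mice, without overlap. For *Scx* these were 28.9 ± 4.98 (SD, n = 3) and 26.0 ± 3.75 CPM (SD, n = 3), which overlapped. HET mouse 1 was the lowest HET mouse and WT mouse 1 the lowest of all for this sum, for the fibroblast sum and for *Wif1*, *Dkk3* and *Sfrp1*. For *Sfrp2* and *Sfrp4*, HET mouse 1 was also the lowest HET mouse, but WT mouse 2 was the lowest of all.

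Macrophage markers were above 0 in 13 of 14 genes, 6 of which passed the threshold with edgeR, against 0.143% of all genes, and summed to between 98.4 and 139 CPM in HET and between 56.6 and 64.9 CPM in WT mice, a 1.94-fold ratio. *Adgre1* had 3.88 ± 0.853 (HET) and 1.27 ± 0.260 CPM (WT, SD, n = 3 each). The marker with the largest ratio of means, named after its values were seen, was *Dpp4* at 2.51 among the fibroblast, *Chad* at 4.50 among the tenocyte and *Fcgr1* at 4.28 among the macrophage markers, beside 6.82 for *Sfrp2*, 4.62 for *Wif1*, 1.91 for *Dkk3* and 1.83 for *Sfrp4*. The ratio of *Fcgr1* rests on 104 reads in all, with 0.0669, 0.319 and 0.142 CPM in WT mice. Like *Sfrp2*, this gene needed its HET mice to pass the filter on low counts. None of the fibroblast, tenocyte and macrophage lists holds an antagonist, and their part in the differences of *Sfrp2*, *Sfrp4*, *Dkk3* and *Wif1* was not tested.

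Adipocyte markers, 6 of 7 above 0 and 0 past the threshold, summed to 655 CPM in HET mouse 2 and 525 CPM in WT mouse 3, and to between 319 and 368 CPM in the other 4 mice. The same mice were highest for *Sfrp5*. *Plin4*, named after its values were seen, made up 78.1% of this sum, and without it the sum was 73.2, 229 and 105 CPM in HET and 28.0, 25.1 and 102 CPM in WT mice, so that WT mouse 3 no longer lay above HET mouse 3. HET mouse 2 and WT mouse 3 were also highest for the summed markers of Schwann and perineurial cells, at 90.2 CPM in HET mouse 2 and 92.3 CPM in WT mouse 3, against 53.1 to 73.5 CPM in the others. *Adipoq* had 16.4 ± 8.55 (HET) and 6.54 ± 6.67 CPM (WT, SD, n = 3 each). The part of these cells in the values of *Sfrp5* was not tested.

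The sums of HET and WT mice overlapped for markers of vascular smooth muscle, endothelial and satellite cells and for muscle fiber genes, with ratios of the means between 0.956 and 1.01. *Des*, which muscle fibers also express, made up 93.2% of the smooth muscle sum, and without it the genotypes overlapped as well. Of 6 satellite cell markers, 2 had every HET mouse below every WT mouse, against 6.02% of all genes. These were *Pax7* and, named after its values were seen, *Myf5*. Of the 6, 2 were above 0, and 0 passed the threshold with edgeR. Among pericyte markers 3 of 8 were above 0, and their sum was lower in every HET mouse, at a ratio of 0.876. *Rgs5* made up 55.3% of that sum, and without it the genotypes overlapped. *Myh7*, the slow myosin that marks soleus fibers, had 14175 ± 511 (HET) and 14062 ± 397 CPM (WT, SD, n = 3 each). Of the other defining markers, *Myh11* had 41.0 and 38.6 CPM, *Rgs5* 570.1 and 715 CPM, *Pecam1* 144 and 150.2 CPM, and *Pax7* 7.33 and 8.54 CPM in HET and WT mice.

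**Figure D5:**
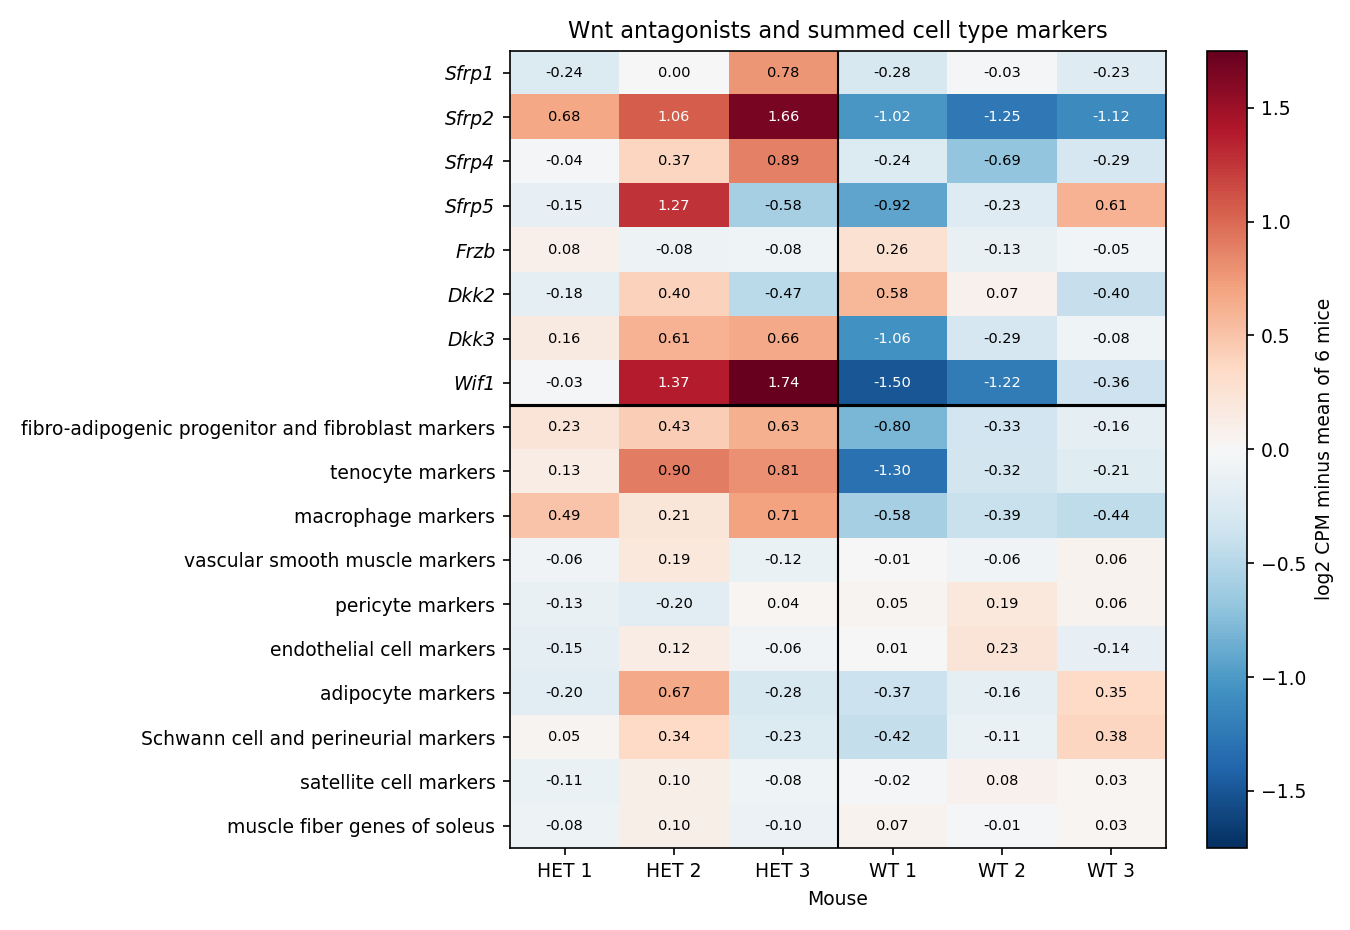
Log2 CPM of the 8 antagonists (upper rows) and of the summed markers of 10 cell types (lower rows) in each of the 6 mice, as the difference from the mean of the row. *Wif1* reached 1.74 in HET mouse 3 and *Sfrp2* −1.25 in WT mouse 2, and the tenocyte sum ran from −1.30 in WT mouse 1 to 0.90 in HET mouse 2.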

How the data were processed

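Soleus RNA of 3 HET and 3 WT mice was sequenced as single reads after poly-A selection, with a stranded library per mouse. Per the labels, the authors aligned the reads with STAR 2.7.3a to GRCm38.p6 and deposited raw counts per gene from featureCounts 2.0.3, which per the file headers was run in reverse-stranded mode with default handling of reads that match several places or genes. The authors also deposited a normalized signal, in which DESeq2 size factors between 0.773 and 1.42 had been divided out of the counts. That table chose the 8 genes by symbol. Another deposited file holds the authors' own comparison and was not used, and 0 columns of values per mouse lacked a sample.

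Genes and lists were chosen with earlier results of these data known. Raw counts were tested in R 4.3.3 with edgeR 4.0.16 (filterByExpr with a minimum count of 10, TMM factors, robust quasi-likelihood fit, genotype as the only term), two-sided, with Benjamini-Hochberg adjustment over 14696 genes at a threshold of 0.05. The standard error is the log2 fold change over the square root of F. CPM and RPKM use the TMM library sizes and the gene lengths of the count table, and log2 CPM used for the likeness of genes and for single-gene permutation tests has a prior count of 2. The depth of 26790075 to 50368796 reads puts the filter at about 0.297 CPM. No label gives separate litters or cages, so a p-value measures the spread between these mice.

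Alternatives were other scaling factors, other filters, DESeq2 1.42.0, limma-voom (limma 3.58.1), a non-robust fit, correction for a trend on gene length or, added after the data were seen, on GC content, the replicate number as a block, and each mouse left out. Marker sums without the most abundant gene of the list were also added after the data were seen. The steps were tested on simulated data for HET against WT with 200 changed genes, where edgeR recovered 184 with 17 false calls among 14468 genes. Named genes were the 8 antagonists, *Mustn1*, the sex genes, the highest, lowest and most abundant member of each Wnt list with any past the threshold, the 2 most alike genes per antagonist, and defining markers of cell types, 1 of which is not reported here. Positions and exons are from GENCODE M21, which shares the build, and 94.2% of shared genes have the same outer coordinates there. Plots and tables used Python 3.11.15, pandas 2.3.3 and matplotlib 3.10.9.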

Additional observations from a re-analysis of the deposited data

How the results depend on the processing

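With all mice kept, the 8 log2 fold changes kept their sign under every other scaling, filter, trend removal or test that gave a value, and 5 antagonists, *Sfrp2*, *Wif1*, *Dkk3*, *Sfrp4* and *Sfrp1*, stayed above 0 in every alternative that gave a value. Without a filter on low counts, 4 antagonists passed, *Sfrp2* at 2.75 (edgeR adjusted p = 6.26e-05), *Wif1* at 2.15 (7.94e-11), *Dkk3* at 0.92 (0.0112) and *Sfrp4* at 0.88 (0.0209), with 386 genes higher and 18 lower. With DESeq2, 2 passed, *Sfrp2* at 2.78 (adjusted p = 0.00258) and *Wif1* at 2.19 (0.000156), with 218 genes higher and 8 lower. The counts of higher and lower genes were 3 and 0 with limma-voom, 6 and 0 with the non-robust fit, and 6 and 1 after removal of the GC trend. *Mustn1* had −0.99 with limma-voom (adjusted p = 0.0673) and −0.96 with the non-robust fit (edgeR adjusted p = 0.0606), past the threshold in neither. Other Wnt pathway genes past the threshold were 3 without the filter (*Igfbp4*, *Rspo2* and *Ccn4*, named after their values were seen) and 1 with DESeq2 (*Igfbp4*). *Sfrp2* could not be fitted with at least 10 reads in every library, since its WT libraries hold fewer. The order of levels per length was the same from the authors' normalized values, with 8 of 8 genes at the same rank.

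Across genes, the deviations of same-numbered HET and WT mice correlated at 0.203, −0.00580 and −0.0349 for numbers 1 to 3. Between different numbers the correlations ran from −0.137 to 0.133. Correlations this weak cannot show whether the numbers pair the mice. With the replicate number as a block, 114 genes were higher and 2 lower, and *Sfrp2* at 2.75 (edgeR adjusted p = 0.0453) and *Wif1* at 2.15 (0.0132) passed, 2 antagonists in all.

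With each mouse left out, the counts ran from 0 to 64 genes higher and from 0 to 3 lower, with 0 antagonists and from 0 to 1 other Wnt pathway genes past the threshold. The log2 fold change stayed between 2.39 and 2.98 for *Sfrp2*, 1.77 and 2.65 for *Wif1*, 0.68 and 1.15 for *Dkk3*, 0.58 and 1.09 for *Sfrp4*, 0.06 and 0.67 for *Sfrp1*, and −1.09 and −0.87 for *Mustn1*. It changed sign for *Sfrp5* (−0.33 to 0.93), *Frzb* (−0.14 to 0.065, the latter without WT mouse 1) and *Dkk2* (−0.43 to 0.11). The cause of these changes was not tested. The depth limits *Sfrp2* most, with 3 to 6 reads per WT library.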
